A study of Rattus norvegicus with 8 samples.

Results

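Tanycyte and thyroid hormone handling genes of the rat hypothalamus were followed here from air-treated to cannabis-exposed animals. Their 9 members, Rax, Vim, Nes, Dio2, Crym, Slco1c1, Thra, Thrb and Hr, were picked by symbol. Every deposited 3′ end site that carried one of these symbols was kept, which gave 38 of the 98356 sites and 9 of the 18003 gene symbols. All 9 were found in the data, and none was called different between the groups at the level of gene totals. The tissue was hypothalamus, dissected from the brains of adult male Long-Evans rats. In the cannabis group, replicates 1, 2, 3 and 5, the vapor of heated cannabis plant matter was delivered to sealed cages. In the control group, replicates 1, 2, 3 and 4, rats sat in the same kind of cage with an empty vaporizer. Both groups had fed freely and lost access to food for the hour between exposure and tissue collection.

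Tanycytes are elongated ependymal cells that line the floor and lower walls of the third ventricle and send processes into the mediobasal hypothalamus. They express the deiodinase Dio2, which converts the prohormone thyroxine into the active hormone, and so set the local supply of thyroid hormone to neighbouring neurons. The hormone enters cells through transporters such as Slco1c1, is held in the cytosol by the binding protein Crym, and acts through the nuclear receptors Thra and Thrb, with Hr as a corepressor of these receptors.

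The assay, WTTS-seq, primes sequencing at the poly(A) tail to count the ends of transcripts. Each read was taken to mark a transcript end, so counts were not corrected for transcript length. Whether single sites are true ends was not tested. Values are normalized counts, in which the reads of each library were scaled by its size factor. A gene total is the sum over its sites, and sites are numbered within a gene from the highest mean down. The libraries held from 1159811 reads on sites (control 4) to 3706778 (cannabis 2), and 1 read was worth from 0.664 to 1.99 normalized counts. The median site of the whole table had 34 reads over the 8 libraries, so single sites are thinly measured. Each library was taken as 1 rat. The study describes libraries for all rats, and its groups held more rats than there were libraries. The number of libraries it reports as sequenced equals the number available here, so none is known to be missing. Why the rats outnumber the libraries is not stated. Available here were 4 libraries per group. The p-values measure the spread between these libraries. Reads are PCR products without molecular identifiers, so the intervals on reads given here cover counting error only. Groups were compared with limma on log2(normalized counts + 1). The added 1 shrinks fold changes of low values, while a library near 0 can move the estimate away from the ratio of group means. Rax, for example, had a fold estimate of 1.43 and a ratio of means of 1.31. A call needed a Benjamini-Hochberg adjusted P under 0.1 over all features.

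None of the 9 gene totals was called by limma, against 0.00555% of all gene totals (1 of 18003). At an unadjusted P under 0.01 the count was 0 of 9, against 0.278% of all gene totals, and at P under 0.05 it was again 0 of 9, against 2.41%. edgeR and DESeq2 on the recovered reads likewise gave 0 of 9 at P under 0.05. The limma estimates were above 0 for 5 members and below 0 for 4, with a median log2 difference of 0.18, beside 0.05 over all gene totals. This split rested on single libraries: the median was -0.06 (3 above 0, 6 below) without control 4, -0.11 (4 above, 5 below) without cannabis 2 and -0.16 (2 above, 7 below) under the replicate block, and 8 of 9 were above 0 without cannabis 1. The median was 0.04 without cannabis 5. The replicate block treats libraries of the same number as pairs, so it compares replicates 1, 2 and 3 only. Control 4 and cannabis 5 share their number with no library of the other group and do not enter its estimate. Whether the numbers stand for pairs is not known. The 2 groups overlapped for all 9 totals, while 1.98% of all gene totals had groups that did not overlap. In bulk tissue fewer cells of a type and less RNA per cell cannot be told apart, and this holds for each level below.

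**Figure D1:**
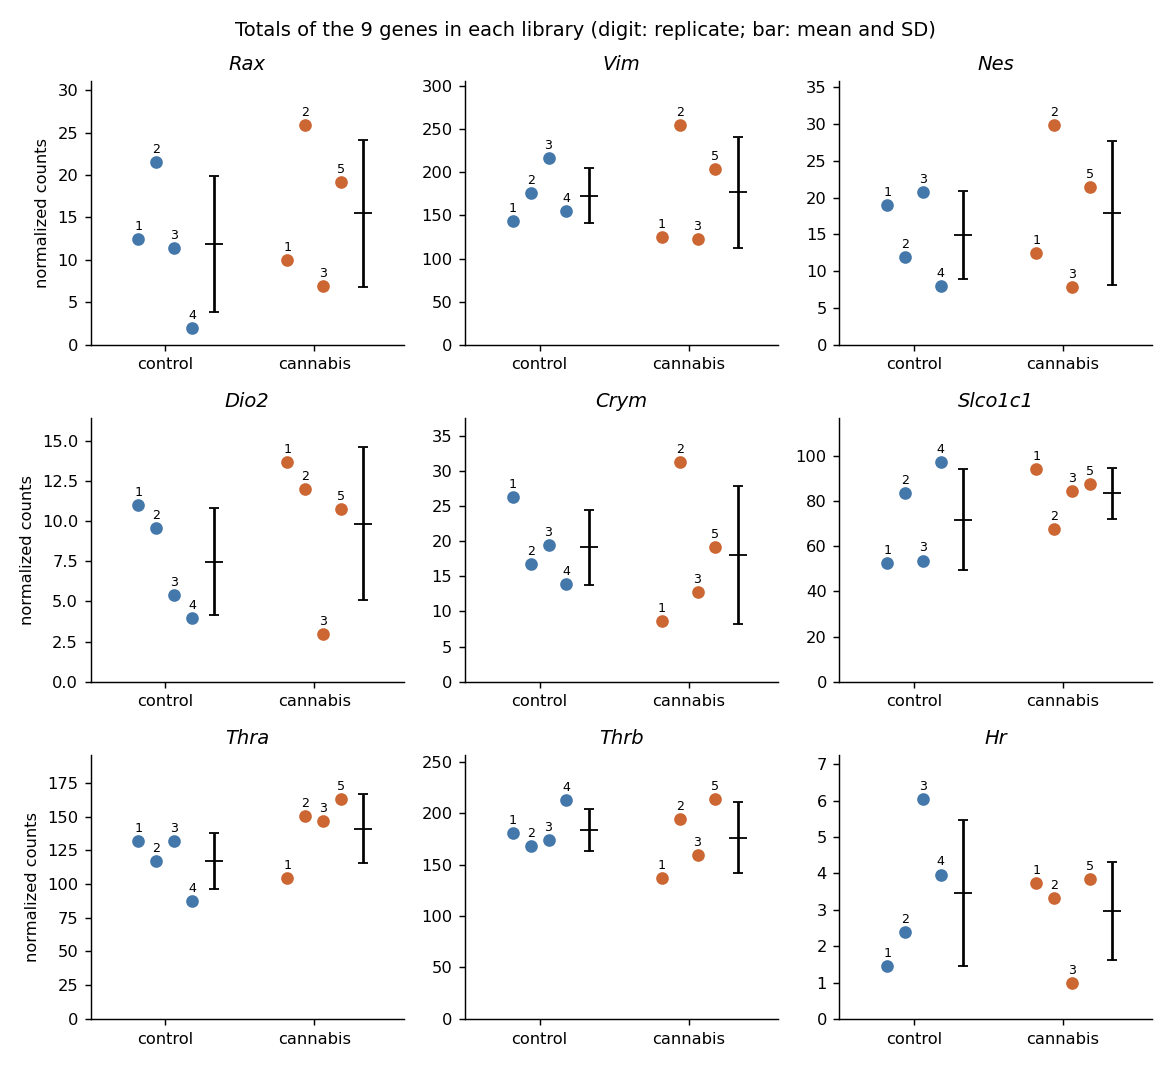
Normalized counts (y axis, linear, from 0) of the 9 gene totals in the 4 control and 4 cannabis libraries. Each point is 1 library with its replicate number, and the bar beside each group is the mean with its SD. In every panel the points of the groups overlap, and Rax of control 4 lies lowest in its panel at 1.99.

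The tanycyte markers were Rax, Vim and Nes. Rax is a homeobox factor of retina and hypothalamus that marks tanycytes in the adult ventricle wall. Its single site had 12.4, 21.5, 11.4 and 1.99 normalized counts in controls 1 to 4 and 9.93, 25.9, 6.89 and 19.2 in cannabis 1, 2, 3 and 5. The low value of control 4 was 1 read, with an exact 95% Poisson interval of 0.0503 to 11.1 normalized counts. The other controls ran from 11.4 to 21.5, and the cannabis libraries extended past them at both ends. The log2 difference by limma was 0.52 (95% CI -0.78 to 1.81, adjusted P = 0.999), and a 2-sided exact permutation test of the normalized counts gave p = 0.571, where 0.0286 is the smallest value that 4 libraries against 4 allow. The log2 difference was -0.08 when control 4 was left out.

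Vim encodes vimentin, an intermediate filament protein that tanycytes share with ependymal, endothelial and reactive glial cells. Its single site had 144, 176, 216 and 155 normalized counts in the controls and 125, 255, 123 and 204 in the cannabis libraries, and the cannabis values took in the lowest and the highest of all. With 1620 reads Vim was the most deeply read of the 9 genes. The means were 173 ± 31.8 (SD, n = 4) and 177 ± 64.3 (SD, n = 4), with an exact permutation p = 0.943. By limma the log2 difference was -0.02 (95% CI -0.59 to 0.55, adjusted P = 0.999). On the fold scale this interval ran from 0.664 to 1.47.

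Nes encodes nestin, an intermediate filament protein of neural progenitors that adult tanycytes retain. Its single site had 19.0, 12, 20.8 and 7.94 normalized counts in the controls and 12.4, 29.9, 7.87 and 21.5 in the cannabis libraries. Control 4 and cannabis 3 had nearly the same low value, and cannabis 2 had the highest. Its log2 difference by limma was 0.18 (95% CI -0.80 to 1.16, adjusted P = 0.999; exact permutation p = 0.571).

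Rax, Vim and Nes, and also Crym, each had their highest level in cannabis 2, the library with the most reads. Cannabis 3 gave the lowest level for 4 members (Vim, Nes, Dio2 and Hr), and control 4, the library with the fewest reads, gave the lowest level for Rax and Thra. Slco1c1 had its highest level in control 4 and its next highest in cannabis 1, the 2 libraries with the fewest reads. Some extremes thus fell in the deepest or shallowest libraries and others did not: cannabis 3 had 2286755 reads on sites, more than cannabis 1 with 1919709. The part of depth in the values was not tested.

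**Figure D2:**
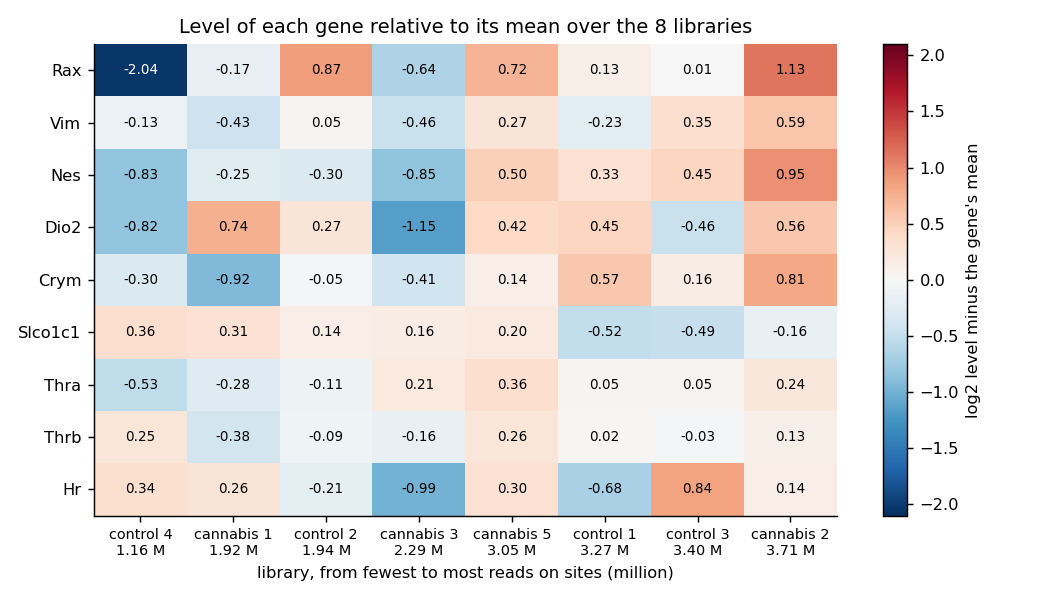
Colour and printed value give the log2(normalized counts + 1) of each gene (rows) minus its mean over the 8 libraries, with libraries (columns) ordered by reads on sites. Rax, Vim, Nes and Crym are highest in the deepest library on the right, and Slco1c1 is highest in the shallowest on the left.

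The promoter windows of the 3 tanycyte markers are shown because these genes peaked in the same library, cannabis 2, a choice made from their values. Crym also peaked there, but no window was found for it. RefSeq windows on GRCr8, from 250 bases before to 50 bases after the annotated start, were found for 6 of the 9 members. They were searched on both strands for the CCAAT box (CCAAT), the TATA box (TATAAA), the GC box (GGGCGG), the cAMP response element (TGACGTCA) and the thyroid hormone receptor half-site (AGGTCA), with overlapping matches allowed. In this order the motifs occur in 37.5%, 14.2%, 33.1%, 1.83% and 16.2% of 33469 promoter windows of that length. Capitals mark every match, read on the strand of the gene, so CCGCCC is GGGCGG and ATTGG is CCAAT on the other strand. The windows lie at chr18:61737395-61737694 (minus strand) for Rax, chr17:81577011-81577310 (plus strand) for Vim and chr2:175736338-175736637 (plus strand) for Nes.
Rax: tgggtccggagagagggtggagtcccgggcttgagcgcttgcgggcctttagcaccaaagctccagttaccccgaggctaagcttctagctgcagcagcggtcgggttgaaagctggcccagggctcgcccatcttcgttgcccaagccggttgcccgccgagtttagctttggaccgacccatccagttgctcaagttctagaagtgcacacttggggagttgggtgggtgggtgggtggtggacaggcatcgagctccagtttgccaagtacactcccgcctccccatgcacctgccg
Vim: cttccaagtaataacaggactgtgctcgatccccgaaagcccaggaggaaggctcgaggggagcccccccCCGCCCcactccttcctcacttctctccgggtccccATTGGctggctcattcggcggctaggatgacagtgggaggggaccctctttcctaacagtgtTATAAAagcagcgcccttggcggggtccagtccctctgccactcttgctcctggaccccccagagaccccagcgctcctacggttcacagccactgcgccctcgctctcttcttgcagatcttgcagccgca
Nes: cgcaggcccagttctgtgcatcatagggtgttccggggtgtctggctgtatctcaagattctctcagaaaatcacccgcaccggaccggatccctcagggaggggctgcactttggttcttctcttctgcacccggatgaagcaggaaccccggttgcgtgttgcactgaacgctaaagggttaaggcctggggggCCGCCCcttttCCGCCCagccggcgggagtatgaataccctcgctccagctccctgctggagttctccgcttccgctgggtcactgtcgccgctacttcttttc
Vim held 1 match each of the CCAAT, TATA and GC boxes, Nes held 2 GC boxes, and Rax held none of the 5 motifs. None of the member windows held the receptor half-site or the cAMP response element. These are letters in reference sequence, and promoter activity was not measured here.

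Dio2, the activating deiodinase, had few reads, 79 over the 8 libraries. Its total was 11.0, 9.58, 5.37 and 3.97 normalized counts in the controls and 13.7, 12, 2.95 and 10.8 in the cannabis libraries. Of the cannabis libraries 3 lay near or above the top of the control range, and cannabis 3 lay below all controls. By limma the total differed by 0.28 on the log2 scale (95% CI -0.82 to 1.39, adjusted P = 0.999, exact permutation p = 0.457).

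Crym encodes mu-crystallin, the cytosolic protein that binds thyroid hormone. Its total was 26.3, 16.8, 19.5 and 13.9 normalized counts in the controls and 8.69, 31.2, 12.8 and 19.2 in the cannabis libraries. As for Vim, the lowest and highest values were both in the cannabis group. Crym differed by -0.19 on the log2 scale (95% CI -1.07 to 0.69, limma adjusted P = 0.999).

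Slco1c1 encodes the thyroxine transporter of brain capillaries and glia. Its total was 52.6, 83.8, 53.7 and 97.3 normalized counts in the controls and 94.4, 67.8, 84.6 and 87.6 in the cannabis libraries. Controls 1 and 3 lay below every cannabis library, and control 4 lay above them all. For Slco1c1 the log2 difference was 0.26 (95% CI -0.31 to 0.82, limma adjusted P = 0.999, exact permutation p = 0.314). Markers of brain endothelium, where this transporter is also found, summed to 129 to 163 normalized counts in the controls and 155 to 186 in the cannabis libraries, and the part of the vessels in the Slco1c1 level was not tested.

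The receptors were better measured. Thra, the receptor that predominates in neurons, had totals of 132, 117, 132 and 87.4 normalized counts in the controls and 104, 150, 147 and 163 in the cannabis libraries. Of the 4 cannabis libraries 3 lay above every control, and cannabis 1 lay within the control range. The limma log2 difference was 0.27 (95% CI -0.23 to 0.76, adjusted P = 0.999), and the exact permutation p of 0.171 was the smallest among the 9 gene totals.

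Thrb, the receptor through which thyroid hormone acts on its own hypothalamic and pituitary drive, had totals of 181, 168, 174 and 212 normalized counts in the controls and 137, 195, 159 and 214 in the cannabis libraries. The cannabis values lay on both sides of the controls. Thrb differed by -0.08 on the log2 scale (95% CI -0.53 to 0.38, limma adjusted P = 0.999, exact permutation p = 0.743), which is a fold interval of 0.692 to 1.30.

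Hr, the hairless corepressor, was at the edge of detection with 29 reads in all. Its single site had 1.46, 2.39, 6.04 and 3.97 normalized counts in the controls and 3.73, 3.32, 0.98 and 3.84 in the cannabis libraries. These levels are near that of 3 reads, which was 1.99 to 5.96 normalized counts depending on the library, so a difference in Hr was not detectable at this depth (log2 difference -0.14, 95% CI -1.32 to 1.03, limma adjusted P = 0.999, exact permutation p = 0.714). Thrb, Vim and Thra were the highest of the 9 genes by mean, and Thrb and Vim overlapped in both groups. In the RefSeq annotation Thra overlaps Nr1d1 and Med24, Hr overlaps Hrurf, Slco1c1 overlaps 1 uncharacterized locus, and Thrb overlaps 8 other loci. WTTS-seq keeps strand, but the study's sites associated with genes include intronic sites and sites on the opposite strand of exons. The totals sum every site with the symbol and may hold such sites. The assignment of single sites between overlapping genes could not be examined here either.

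**Figure D3:**
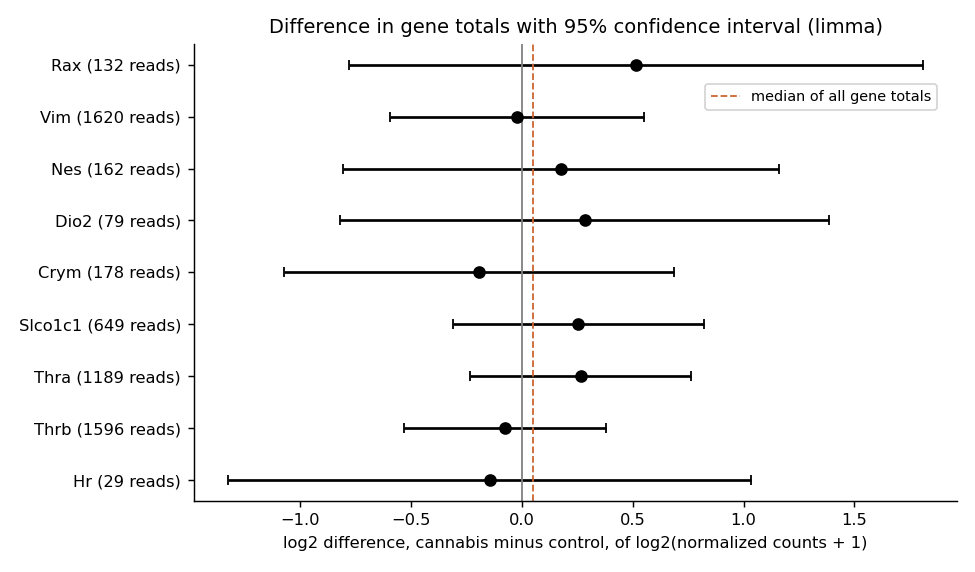
Points are the log2 difference, cannabis minus control, of the 9 gene totals, and bars are limma 95% confidence intervals, with the reads summed over 8 libraries beside each gene. All 9 intervals include 0 (grey line), they are widest for Rax, Hr and Dio2, and the dashed line is the median of all gene totals, 0.05.

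The choice of 3′ end site was compared next, since a gene can keep its total while shifting between sites. Rax, Vim, Nes and Hr had 1 site each, Dio2 and Crym 2, Slco1c1 5, Thra 10 and Thrb 15. Tested as single sites, 0 of 38 were called by limma, against 0.00102% of all sites. At P under 0.01 there was 1 of 38, against 0.381%, and at P under 0.05 there was the same 1 of 38, against 3.03%. In the usage test, which asks whether a site changed differently from the other sites of its gene (limma diffSplice), 0 of 34 sites were called, against 0.00349% of all sites tested, 0 had P under 0.01, against 0.655%, and 4 had P under 0.05, against 3.51%. These 4 are both sites of Dio2 and 2 minor sites of Thrb. In a gene with 2 sites this test gives both the same P with opposite signs. The 2 Dio2 sites are therefore 1 result counted for each site, and the share over all sites counts such genes in the same way.

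The sites of Dio2 were split unevenly between libraries. Site 1 held 3 of 15, 4 of 8, 2 of 8 and 0 of 2 Dio2 reads in controls 1 to 4, and 10 of 11, 12 of 18, 1 of 3 and 9 of 14 in cannabis 1, 2, 3 and 5. As shares this is 20%, 50%, 25% and 0% against 90.9%, 66.7%, 33.3% and 64.3%. Cannabis 1, 2 and 5 lay above all controls, and cannabis 3 lay below control 2. Single shares are imprecise: the exact 95% binomial interval was 0% to 84.2% for control 4 and 0.840% to 90.6% for cannabis 3. The mean share was 23.8 ± 20.6% (SD, n = 4) in controls and 63.8 ± 23.6% (SD, n = 4) in cannabis libraries, with p = 0.0571 in a 2-sided exact permutation test. The usage difference was 2.15 on the log2 scale (limma diffSplice adjusted P = 1.00), so it did not pass over all sites. It kept its sign in 12 of 12 alternatives, was between 1.13 and 2.64, and had an adjusted P of at least 0.999 in all 12.

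In Crym, site 1 held 94.4%, 92.9%, 86.2% and 85.7% of the total in the controls and 100%, 85.1%, 69.2% and 68.0% in the cannabis libraries, with the groups overlapping because of cannabis 1 (exact permutation p = 0.286). In Slco1c1, site 1 held 88.9 ± 7.5% in controls and 83.2 ± 9.5% in cannabis libraries (SD, n = 4, exact permutation p = 0.343), and site 2 held 5.0% and 7.9%. Its 3 other sites together made 7.02% of the gene.

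Thra was spread over several ends. Sites 1 to 4 held 29.4%, 25.3%, 19.8% and 6.1% of the total in controls and 27.2%, 29.7%, 18.1% and 7.7% in cannabis libraries, and the groups overlapped for each. The share of site 1 alone ranged from 16.7% in cannabis 1 to 47.2% in control 1. The 6 smaller sites had means of 2.17 to 4.97 normalized counts over the 8 libraries and made 18.6% of the gene.

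In Thrb, sites 1 to 5 held 33.9%, 20.5%, 7.4%, 6.6% and 7.2% in controls and 35.5%, 24.5%, 8.2%, 5.4% and 4.9% in cannabis libraries, again with overlapping groups. The share of the leading site ranged from 28.7% to 39.9% over the 8 libraries. The 10 smaller sites made 22.6% of the gene. Of all 38 sites of the 9 genes 2 had groups that did not overlap, where 2% of all sites did so, and both were small Thrb sites. These were singled out after their values were seen.

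Thrb site 10 had 7.31, 8.38, 4.70 and 5.96 normalized counts in the controls and 0, 1.99, 0 and 3.84 in the cannabis libraries, so all cannabis values lay below all controls. Its log2 difference was -1.93 (limma adjusted P = 1.00). The exact permutation p of 0.0286 follows from the groups not overlapping, the trait by which the site was picked. It therefore adds no support. Thrb site 6 had 3.66, 3.59, 8.06 and 5.96 in the controls and 8.69, 9.30, 13.8 and 13.1 in the cannabis libraries. The log2 difference of Thrb site 6 was 0.99 (limma adjusted P = 1.00), and its exact permutation p was fixed at 0.0286 in the same way. Both sites are small, at 2.24% and 4.59% of Thrb, and neither passed over all sites.

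**Figure D4:**
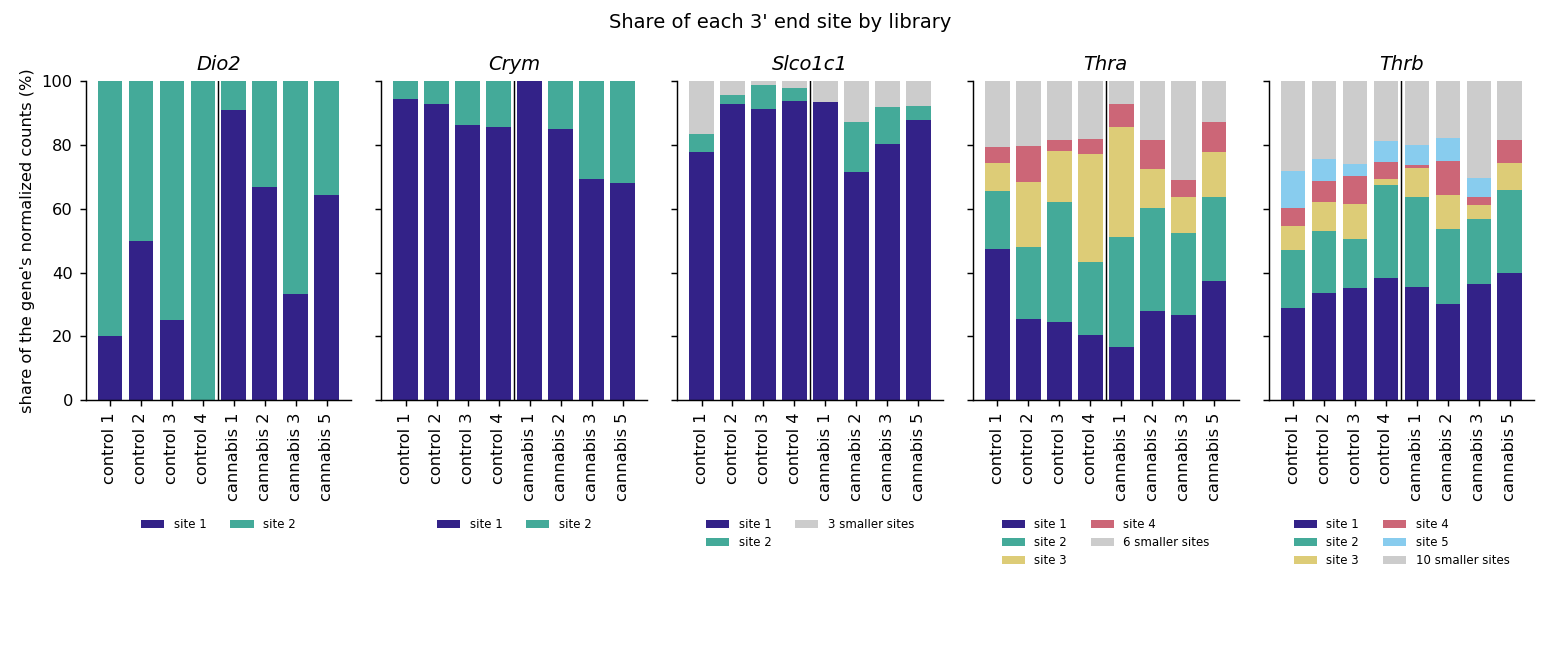
Stacked bars give the share (%, linear axis from 0 to 100) of each 3′ end site in the normalized counts of its gene, for the 5 genes with more than 1 site, in 4 control (left of the line) and 4 cannabis libraries. Sites under 5% of a gene are pooled in grey. Dio2 site 1 runs from 0% to 50% in controls and from 33.3% to 90.9% in cannabis libraries, while Thrb site 1 stays between 28.7% and 39.9%.

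Further genes of the same biology were then read by list. In all 10 lists no gene was called by limma, against the 0.00555% of gene totals given above. Of 10 other tanycyte genes 8 were measured, 7 with an estimate above 0 and 1 below, at a median log2 difference of 0.15. The median was 0.08 without cannabis 2 and 0.26 without control 2, with 5 of 8 and 7 of 8 above 0. The highest were Frzb, a secreted Wnt inhibitor, at 104 and 119 normalized counts (control and cannabis means), and Ppp1r1b, the phosphatase regulator DARPP-32, at 65.9 and 80.0.

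Of 12 other thyroid hormone handling genes 10 were measured. All 10 had an estimate above 0, with a median of 0.46, beside 0.05 over all gene totals, and none had P under 0.05. The genes share the same libraries, so their signs are not 10 independent results. The list was also chosen with earlier results of these data known. Some were low: Dio3, at 4.14 and 4.30, had a log2 difference of 0.57. With a pseudocount of 5 the median was 0.32. At a mean of at least 10 normalized counts it was 0.39, with 6 of 6 above 0. Over 16 alternatives the median stayed between 0.29 (without control 4) and 0.60 (without cannabis 1), and 1 gene of 10 was below 0 in 5 of them (the replicate block, without control 2, without control 4, edgeR and DESeq2). The list is led by Trh, the hypothalamic releasing hormone of the thyroid axis, at 560 in controls (443 to 620) and 669 in cannabis libraries (604 to 743), with a log2 difference of 0.26 (limma adjusted P = 0.999, exact permutation p = 0.0571). Its degrading enzyme Trhde was at 146 and 156. The summed level of the list was 686 to 867 in controls and 871 to 1031 in cannabis libraries, most of it Trh, while Dio3 and Ttr were at 0 in at least 1 library.

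Of 8 receptor partners 7 were measured, 3 above 0 and 4 below, at a median of -0.14. This sign turned without control 4 (0.13, 5 above 0), cannabis 2 (0.01) or cannabis 3 (0.02) and under the replicate block (0.08, 5 above 0). The corepressor Ncor1 was at 308 and 282. Of 7 thyroid hormone responsive genes all were measured, 3 above 0 and 4 below, at a median of -0.11, which was -0.04 without cannabis 3 and -0.07 without control 1. The highest were the neuronal genes Nrgn, at 328 and 306, and Rasd2, at 252 and 271.

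Markers of other cells that the dissection could hold were read in the same way. The ependymal list (5 of 6 measured, 3 above 0 and 2 below, median 0.12) was led by Rsph1, at 47.8 and 88.4, and Rarres2, at 30.0 and 26.0, and summed to 101 to 147 in controls and 103 to 219 in cannabis libraries. The 8 astrocyte markers (5 above 0, 3 below, median 0.35) summed to 8266 to 10600 and to 10076 to 12346, led by S100b, at 3097 and 4004, and Agt, at 2867 and 3655. Gfap, 1 of the 3 below 0, was at 1565 and 1355, with 515 in cannabis 5. The 6 endothelial markers (5 above 0, 1 below, median 0.19) were led by Flt1, at 71.0 and 95.7, and Abcb1a, at 34.5 and 41.2. These medians also rested on single libraries. The ependymal median was 0.02 without control 1 or cannabis 5, 0.26 without control 3, 0.28 without cannabis 1, 0.21 under the replicate block and 0.46 at a mean of at least 10 normalized counts. The astrocyte median was 0.19 without control 4 and 0.10 under the replicate block. The endothelial median was 0.02 without control 3, 0.31 without control 2, 0.30 without cannabis 3, 0.30 and 0.12 with pseudocounts of 0.5 and 5 and 0.42 at a mean of at least 10. The part of these cells in the member levels was not tested.

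Pituitary and pars tuberalis markers (4 of 6 measured, 1 above 0 and 3 below, median -0.10) varied widely between libraries, with sums of 124 to 824 in controls and 200 to 702 in cannabis libraries. They were led by Cga, at 379 and 362, and Tshb, at 55.9 and 55.0. Their median turned to 0.11, 0.14 and 0.16 without control 1, control 2 and cannabis 3, and it was -0.51 without control 3 and -0.39 without cannabis 2. Choroid plexus markers (4 of 6 measured, all above 0, median 0.66) were low, with sums of 15.9 to 31.1 and 13.7 to 45.2, led by Folr1, at 7.38 and 10.2, and Kcnj13, at 8.10 and 8.74, and Ttr, which is in this list and in that of thyroid hormone handling genes, and Folr1 were at 0 in at least 1 library. The choroid plexus median was 0.27 without control 4 and 0.31 under the replicate block, each with 3 of 4 above 0, and it was 0.41, 0.37 and 0.37 without control 3, cannabis 2 and cannabis 3, 0.33 with a pseudocount of 5 and 1.04 without cannabis 1. Hypothalamic neuron markers (7 of 8 measured, 6 above 0 and 1 below, median 0.34) were present in every library, led by Pmch, at 634 and 889, and Hcrt, at 202 and 230, and their median was 0.21 under the replicate block and 0.53 without cannabis 3. Among all the lists only Nkx2-1, a hypothalamic patterning factor, had an unadjusted limma P under 0.05, at 12.6 and 22.6 (log2 difference 0.86, limma adjusted P = 0.999, exact permutation p = 0.0857).

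**Figure D5:**
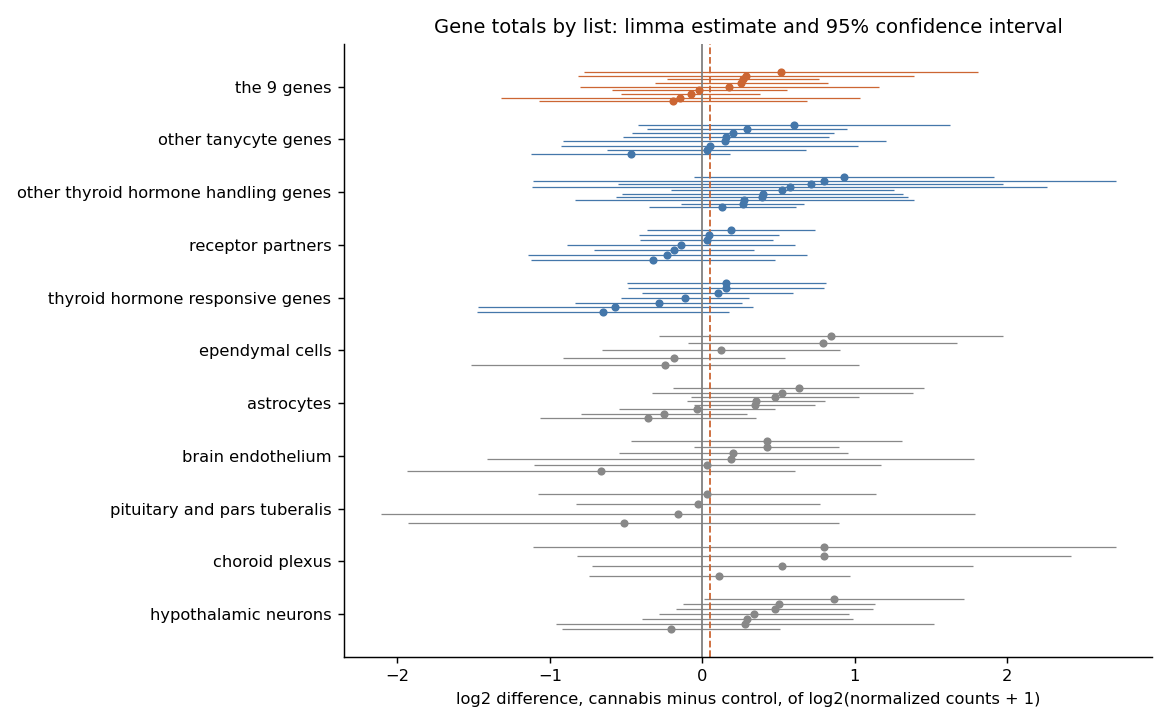
Points are limma log2 differences (cannabis minus control) of single gene totals and bars their 95% confidence intervals, grouped by list, with the 9 genes at the top in orange, related genes in blue and markers of other cells in grey. The dashed line is the median of all gene totals, 0.05, and all 10 other thyroid hormone handling genes lie to the right of 0 with intervals that include it.

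The genes whose pattern over the 8 libraries was most like that of Rax, among 9626 symbols with a mean of at least 20 normalized counts, were Ormdl2 (Pearson r = 0.965), Rnf146 (r = 0.960) and Rabepk (r = 0.958). For Dio2 they were Dctn6 (r = 0.937), Gpr89b (r = 0.905) and Fto (r = 0.905). The points share their libraries and depth, and the median r over all symbols was 0.22 for Rax and 0.09 for Dio2. None of these 6 belongs to a list above.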

How the data were processed

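WTTS-seq of hypothalamic RNA was analysed in 4 control and 4 cannabis libraries. The authors mapped strand-specific reads with TMAP, clustered 3′ ends into sites and assigned genes; Rnor 6.0 is the build in the submitters' processing notes. The deposited signal is a normalized count per site, that is, reads scaled by the size factor of each library, for which the study's methods name DESeq2. All values (100% in each library, within 0.001 reads) were whole multiples of the smallest one, which gave the reads. The 8 tables were joined by row order. Site positions were not analysed here.

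Sites were summed by symbol. limma 3.58.1 (R 4.3.3; lmFit, eBayes with trend; diffSplice for usage) was fitted on log2(normalized count + 1) over all 18003 gene totals or 98356 sites without a filter, and checked on simulated data. edgeR 4.0.16 (quasi-likelihood, TMM) and DESeq2 1.42.0 were run on the recovered reads. Exact permutation tests, intervals and figures used scipy 1.17.1, matplotlib 3.10.9, pandas 2.3.3 and numpy 2.4.6 under Python 3.11.15. Members and lists were chosen with earlier results of these data known. All 9 members are named, with sites of at least 5% of a gene described singly, the 2 highest genes of each list, any called gene and the 3 genes most like Rax and Dio2. Nkx2-1, Gfap, the values of Dio3, Thrb site 6 and Thrb site 10 were added after their values were seen. Some genes that the rule names are not reported here. Alternatives were a replicate block, each library left out, pseudocounts (0.5 and 5), a filter on mean normalized counts (at least 10), equal library totals, eBayes without trend, edgeR and DESeq2. The block pairs libraries by number, so control 4 and cannabis 5 do not enter its estimates.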

Additional observations from a re-analysis of the deposited data

Results flagged for a closer look

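In 4 of 78 groups of 4 libraries 1 library stood apart from the other 3 by the Dixon criterion, where chance gives about 1 in 20, or 3.9. Dio2 site 2 was at 8.77 normalized counts in control 1 and at 3.97 to 4.79 in the other controls. Slco1c1 site 1 held 77.8% of the gene in control 1 and 91.3% to 93.9% in the other controls. Thra site 3 held 34.5% in cannabis 1 and 11.4% to 14.2% in the other cannabis libraries. Thrb site 5 held 0% in cannabis 5, where it had no read, and 6.17% to 7.17% in the other cannabis libraries.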

How the results depend on the processing

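No gene total of the 9 was called, or reached P under 0.05, under any of the alternatives. Hr, Dio2, Rax, Nes and Crym had 29 to 178 reads each, and their intervals, which hold the spread between libraries as well as counting error, allow changes of more than 1.5 times in either direction. Gene totals whose sign changed had P above 0.1 in every setting. Rax went to -0.232 under the replicate block and -0.0794 without control 4 (range with a library left out -0.0794 to 0.893). Vim went to 0.094, 0.122 and 0.131 without control 3, cannabis 1 and cannabis 3 (range -0.218 to 0.131) and 0.0373 with DESeq2. Nes went to -0.207 under the block, -0.0714 without control 4 and -0.111 without cannabis 2 (range -0.111 to 0.489). Dio2 went to -0.0344 under the block (range with a library left out 0.0584, without control 4, to 0.716, without cannabis 3). Thra was 0.0586 under the block and ranged from 0.134, without control 4, to 0.404, without cannabis 1, and Slco1c1 was 0.391 under the block and ranged from 0.126, without control 1, to 0.417, without control 4. Crym went to 0.0836 without cannabis 1 (range -0.494 to 0.0836), Thrb to 0.0383 without cannabis 1 (range -0.175 to 0.0383), and Hr to 0.112 without control 3 and 0.161 without cannabis 3 (range -0.394 to 0.161). Among differences in site shares, in percentage points, Thra site 1 went to 3.68 without control 1 and 1.24 without cannabis 1 (range -5.62 to 3.68), and Thra site 3 to 3.08, 0.227 and 0.554 without control 4, cannabis 2 and cannabis 3 (range -7.15 to 3.08). Thrb site 1 went to -0.216 without control 1 (range -0.216 to 3.33), Thrb site 3 to -1.11 without control 4 and -0.0662 without cannabis 2 (range -1.11 to 2.02), and Thrb site 4 to 0.216 without cannabis 1 (range -3.12 to 0.216). The cause was not tested.

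Counts over the whole table moved more. Gene totals called were 1, and 2 under the replicate block, 0 without trend, 2 at equal totals, 2 with edgeR, 5 with DESeq2 and 0 to 2 with a library left out. Sites called were 1, and 7 under the block, 0 without trend, 0 at a mean of at least 10, 4 with DESeq2 and 0 to 5 with a library left out. Sites called for usage were 2, and 7 with a pseudocount of 5 and 1 to 4 with a library left out. At P under 0.01, gene totals went from 50 to 24 under the block, 98 without trend, 29 at a mean of at least 10 and 30 to 90 with a library left out. Sites went from 375 to 229 under the block, 44 at a mean of at least 10, which tests fewer sites, and 227 to 617 with a library left out. Usage went from 375 to 223 under the block, 49 at a mean of at least 10 and 247 to 552 with a library left out.

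Replicate numbers 1, 2 and 3 occur in both groups. Deviations of same-numbered libraries from their group means correlated at -0.23, 0.09 and -0.07. Those of differently numbered libraries correlated at -0.39 (control 4 with cannabis 2) to 0.49 (control 4 with cannabis 1). Whether a number stands for a pairing cannot be told from so few values.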
